A study of Caenorhabditis elegans with 24 samples.

Results

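The genes described here are *mtl-1*, *mtl-2*, *numr-1*, *numr-2*, *cdf-2* and *ttm-1*, a set of 6 metal-response and zinc-transport genes of *Caenorhabditis elegans* picked by gene symbol. The set was picked with earlier results of these data known, and the study's paper lists *numr* among the genes raised by CoCl2. The 6 genes were measured by 7 of the 43603 probes of the array and make up 6 of its 25616 gene names, with 2 probes for *numr-1* and 1 for each of the other genes. Metallothioneins are small, cysteine-rich proteins that bind zinc, copper and cadmium and hold these ions away from other proteins. In worms both metallothionein genes are switched on by cadmium in the intestine, and *mtl-1* is also known as a target of DAF-16, the FOXO factor of the insulin-like pathway. Cobalt, the metal given here, is a divalent transition metal that is used as a chemical mimic of hypoxia.

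*mtl-1* (probe for K11G9.6.2) and *mtl-2* (T08G5.10) encode the metallothioneins and lie on chromosome V in the RefSeq gene table. *numr-1* (F08F8.5) and *numr-2* (F08F8.1) encode nuclear proteins known for their induction by cadmium, and lie next to each other on chromosome III with *hmgr-1* on one side and F08F8.11 on the other. *cdf-2* (T18D3.3, chromosome X) encodes a zinc transporter of the storage granules of intestinal cells, and *ttm-1* (NM_067291, chromosome III) a transporter of the same family that moves zinc out of cells. The files hold no probe sequences, so signal of *numr-1* RNA on the *numr-2* probe, or the reverse, cannot be told apart from the gene's own signal.

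Whole worms of 2 strains were compared, N2, the wild type, and *pqm-1(ok485)*, a loss-of-function mutant of the zinc finger transcription factor PQM-1. Worms of hypochlorite-synchronized populations were given 5 mM CoCl2 or none (0 mM) at early day 1 of adulthood, for 6 h or for 20 h, which makes 8 RNA groups. On each of the 24 Agilent 4x44K arrays a Cy3 and a Cy5 sample competed. There were 4 comparisons at each time, on 3 arrays each, 1 per biological replicate. The CoCl2 response was measured in N2 and in *pqm-1(ok485)* as CoCl2 over no CoCl2 in the same strain, and the mutant was set over N2 both without and with CoCl2. The mutant strain is 1 allele, so its genetic background cannot be told apart from the loss of *pqm-1*.

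Values are log2 ratios of the first named RNA over the second, so that 1 is a doubling, and a gene is called higher or lower where its Benjamini-Hochberg adjusted p from limma, over all 22067 genes tested at 6 h or 23058 at 20 h, was below 0.01. In whole-worm RNA, fewer cells of a type and less RNA per cell cannot be told apart. Between 68.9% and 92.1% of the probes of an array stood above background in at least 1 channel, replicates of a comparison correlated across genes with r of 0.674 to 0.961, and the number of arrays limits the precision. Which dye an RNA carried stands both in the labels' strain and treatment fields and in their source names, and these contradict each other on 11 of the 24 arrays. Directions here follow the fields, as do the signs of the deposited series table on 24 of 24 arrays. With the dyes of the source names 13 called values of these genes changed direction, and limma called none of the 6 genes in any comparison. It then called none of all genes in the CoCl2 responses of either strain either.

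In N2, CoCl2 raised *numr-1* more than nearly every other gene, lowered *mtl-2*, and raised *cdf-2* at 6 h, while *mtl-1* did not pass the test at either time. At 6 h 2 of the 5 genes tested were higher and 1 lower, where 4.24% of all genes were called, 2.56% higher and 1.68% lower. At 20 h 1 of the 6 genes tested was higher and 1 lower, where 15.9% of all genes were called, 8.98% higher and 6.93% lower.

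**Figure D1:**
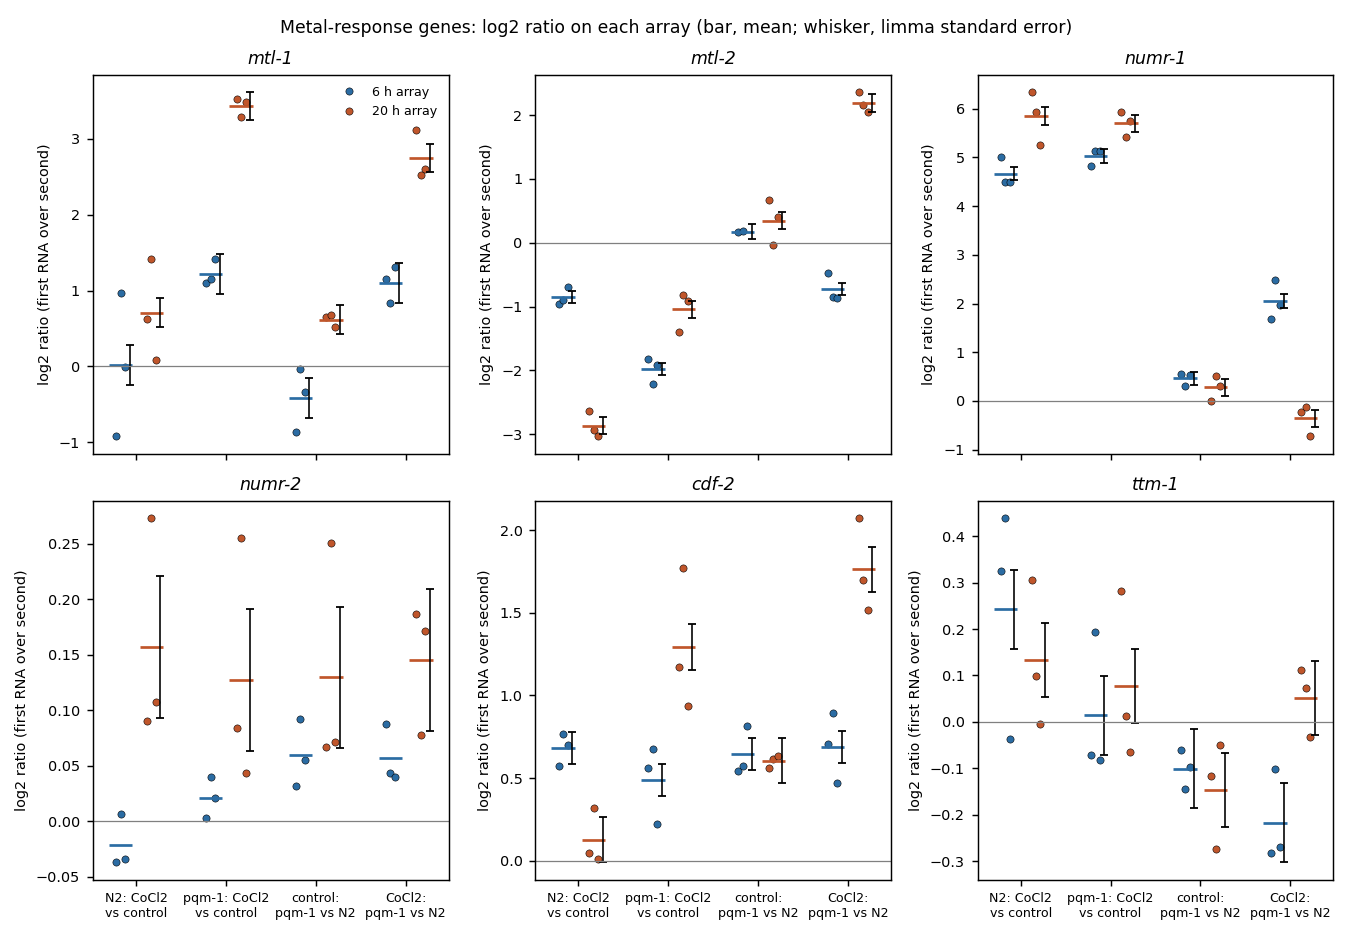
Log2 ratio of each gene (y axis, first RNA over second) on every array of the 4 comparisons (x axis), with 6 h in blue and 20 h in orange, where bars are means and whiskers the standard error of limma. *numr-1* sits between 4.49 and 6.35 in the CoCl2 responses of both strains, *mtl-2* lies below 0 in all CoCl2 responses, and *mtl-1* is far above 0 in the mutant with CoCl2 at 20 h. The y axes differ between panels, and *numr-2* and *ttm-1* span less than 1.

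The log2 ratios of *numr-1* at 6 h were 5.01, 4.49 and 4.50 in replicates 1, 2 and 3, and at 20 h they were 6.35, 5.93 and 5.26. All 6 arrays gave a ratio far above 0, and the lowest array at 20 h lay above the highest at 6 h. The mean at 6 h was 4.67 (SE 0.14, adjusted p = 1.14e-09 from limma), a 25.4-fold rise that ranked 4 of 22067 genes. The mean at 20 h was 5.85 (SE 0.18, adjusted p = 1.41e-09), a 57.5-fold rise that ranked 2 of 23058 genes. Both probes of *numr-1* gave the same direction on every array of these comparisons, with means of 4.80 and 4.54 at 6 h and 6.11 and 5.58 at 20 h.

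*mtl-2* fell in N2 at both times. Its log2 ratios were -0.96, -0.90 and -0.69 at 6 h and -2.63, -2.93 and -3.03 at 20 h, so that the arrays of the times did not overlap. The fall at 6 h was 1.80-fold (mean -0.85, SE 0.094, adjusted p = 0.000136 from limma) and the fall at 20 h 7.28-fold (mean -2.86, SE 0.14, adjusted p = 3.78e-08), the latter 16th from the lowest of all genes. With centering on the median, without loess, the call at 6 h was lost (adjusted p = 0.279).

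The other metallothionein gene behaved differently on the arrays of N2. *mtl-1* gave -0.92, 0.97 and -0.003 at 6 h, with replicates on both sides of 0 (mean 0.016, SE 0.26, adjusted p = 0.999 from limma), and 0.63, 1.41 and 0.088 at 20 h (mean 0.71, SE 0.19, adjusted p = 0.0147). The value at 20 h was 0.36 without replicate 2 (adjusted p = 0.127), was past the threshold without replicate 3, at 1.02 (adjusted p = 0.00125), and was 1.63 with the scanner software's own ratios (adjusted p = 3.60e-05). For *cdf-2*, whose product stores zinc, the ratios were 0.57, 0.77 and 0.70 at 6 h, a 1.60-fold rise (mean 0.68, SE 0.096, adjusted p = 0.000629), which was not past the threshold without replicate 2 (0.64, adjusted p = 0.0115) or with centering on the median (adjusted p = 0.128). At 20 h the *cdf-2* ratios of 0.047, 0.32 and 0.013 were close to 0 (mean 0.13, adjusted p = 0.566).

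In *pqm-1(ok485)*, CoCl2 raised *numr-1*, *mtl-1* and *cdf-2* and lowered *mtl-2* at both times. These are 3 higher and 1 lower of 5 genes tested at 6 h, beside 10.9% of all genes called (6.07% higher and 4.83% lower), and 3 higher and 1 lower of 6 tested at 20 h, beside 35.2% of all genes (22.8% and 12.4%). *numr-1* ranked 1 at either time, with a 32.6-fold rise at 6 h and a 51.9-fold rise at 20 h.

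The *numr-1* arrays of the mutant gave 4.82, 5.13 and 5.14 at 6 h (mean 5.03, SE 0.14, adjusted p = 9.83e-10 from limma) and 5.93, 5.42 and 5.75 at 20 h (mean 5.70, SE 0.18, adjusted p = 1.52e-09). The times did not overlap, as in N2. On replicate 2 at 6 h the Cy3 source name reads N2 with CoCl2 where the fields give the mutant with CoCl2. Without this array the mean of *numr-1* was 4.98 (adjusted p = 5.64e-08) and that of *mtl-2* -1.87 (adjusted p = 1.84e-06). *mtl-1* gave 1.09, 1.15 and 1.41 at 6 h and 3.52, 3.29 and 3.49 at 20 h, again with all arrays above 0 and the times apart. Its rise was 2.33-fold at 6 h (mean 1.22, SE 0.26, adjusted p = 0.00591 from limma) and 10.8-fold at 20 h (mean 3.43, SE 0.19, adjusted p = 6.16e-08), the latter 37th of all genes. The call of *mtl-1* at 6 h was lost on leaving out any 1 of the 3 replicates, with means of 1.28, 1.25 and 1.12 without replicates 1, 2 and 3 (adjusted p of 0.0299 to 0.0364).

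*mtl-2* fell at 6 h on all arrays of the mutant, by ratios of -1.83, -2.21 and -1.91, a 3.96-fold fall (mean -1.98, SE 0.094, adjusted p = 8.42e-08 from limma). At 20 h its ratios were -1.40, -0.82 and -0.91, a 2.06-fold fall (mean -1.04, SE 0.14, adjusted p = 5.91e-05). In the mutant the 6 h arrays thus lay below the 20 h arrays, while in N2 they lay above them. *cdf-2* gave 0.56, 0.68 and 0.23 at 6 h (mean 0.49, adjusted p = 0.00355), a call lost without replicate 1 (0.45, adjusted p = 0.0395) or replicate 2 (0.39, adjusted p = 0.0527), and 1.17, 1.77 and 0.94 at 20 h, a 2.45-fold rise (mean 1.29, SE 0.14, adjusted p = 1.10e-05). Of the 4 calls at 6 h SAM, the permutation-based test of the study's methods, kept that of *numr-1*. It called 223 of all genes there, where limma called 2404.

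Without CoCl2 limma called 1 of these genes between the strains. At 6 h 1 of 5 genes tested was higher in *pqm-1(ok485)*, *cdf-2*, beside 13.8% of all genes called (10.5% higher and 3.24% lower), and at 20 h limma called 0 of 6, beside 4.35% of all genes (3.1% and 1.26%). SAM called *mtl-1* and *cdf-2* in the 20 h comparison, where it called 2023 of all genes and limma 1004.

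The *cdf-2* ratios of untreated *pqm-1(ok485)* over untreated N2 were 0.54, 0.57 and 0.82 at 6 h, a 1.56-fold difference (mean 0.64, SE 0.096, adjusted p = 0.000371 from limma), and 0.56, 0.62 and 0.64 at 20 h (mean 0.60, SE 0.14, adjusted p = 0.0172). The 6 arrays were all above 0 and the times overlapped. The call at 6 h was lost with centering on the median (adjusted p = 0.0953). *mtl-1* gave -0.87, -0.040 and -0.34 at 6 h (mean -0.42, adjusted p = 0.327) and 0.65, 0.68 and 0.52 at 20 h (mean 0.62, adjusted p = 0.0688), with the latter at 1.52 and past the threshold when the scanner software's ratios were used (adjusted p = 0.000273). *numr-1* gave 0.56, 0.30 and 0.53 at 6 h (mean 0.46, adjusted p = 0.0321) and 0.0063, 0.51 and 0.31 at 20 h (mean 0.28, adjusted p = 0.521). For *mtl-2* the 6 h value rests on replicates 1 and 2, at 0.17 and 0.18, since the spot of replicate 3 was marked as an outlier (mean 0.17, adjusted p = 0.357), and the 20 h ratios were 0.67, -0.032 and 0.40 (mean 0.35, adjusted p = 0.185).

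With CoCl2 more of these genes were called between the strains, as were more of all genes. At 6 h *numr-1*, *mtl-1* and *cdf-2* were higher and *mtl-2* lower in *pqm-1(ok485)* than in N2, 3 higher and 1 lower of 5 genes tested beside 19.6% of all genes called (14.2% and 5.42%). At 20 h *mtl-1*, *mtl-2* and *cdf-2* were higher and none of the 6 was lower, beside 37.3% of all genes (23.7% and 13.6%). *mtl-2* thus lay on opposite sides of 0 at the 2 times.

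*mtl-1* gave 1.15, 0.84 and 1.31 at 6 h, a 2.14-fold difference (mean 1.10, SE 0.26, adjusted p = 0.00672 from limma), and 3.12, 2.52 and 2.60 at 20 h, a 6.70-fold difference (mean 2.74, SE 0.19, adjusted p = 8.40e-07) that ranked 28 of all genes. The 6 h call was lost on leaving out any of the 3 replicates, with means of 1.08, 1.23 and 0.99 without replicates 1, 2 and 3 (adjusted p of 0.0218 to 0.0446). *mtl-2* gave -0.47, -0.84 and -0.87 at 6 h (mean -0.73, SE 0.094, adjusted p = 0.000132 from limma) and 2.37, 2.15 and 2.05 at 20 h (mean 2.19, SE 0.14, adjusted p = 4.57e-07). The mutant was thus 1.65-fold lower at 6 h, a call lost with SAM and with centering on the median (adjusted p = 0.107), and 4.56-fold higher at 20 h.

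*cdf-2* was higher on all 6 arrays that compared the strains with CoCl2, at 0.70, 0.89 and 0.47 at 6 h, close to its ratios without CoCl2 (mean 0.69, SE 0.096, adjusted p = 0.000164 from limma) and 2.08, 1.70 and 1.52 at 20 h (mean 1.76, SE 0.14, adjusted p = 2.25e-06). These are 1.61-fold and 3.40-fold differences, the former not past the threshold with centering on the median (adjusted p = 0.0258). *numr-1* gave 1.69, 2.49 and 1.97 at 6 h, a 4.14-fold difference (mean 2.05, SE 0.14, adjusted p = 5.14e-07). At 20 h its ratios were -0.23, -0.12 and -0.73 (mean -0.36, adjusted p = 0.117), but both probes were saturated in the *pqm-1(ok485)* channel on 3 of 3 arrays, so this value does not order the strains and no fold is given.

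The direct 6 h value of *numr-1* was larger than the other 3 comparisons imply. Untreated *pqm-1(ok485)* over untreated N2, plus the response of the mutant, minus that of N2, gave 0.82 where the arrays that paired both CoCl2 RNAs gave 2.05, a gap of 1.23. For all genes the 5th to 95th percentile of this gap was -0.19 to 0.22, and its size for *numr-1* was at percentile 99.97. The gaps of the other genes at 6 h were 0.31 for *mtl-1*, 0.23 for *mtl-2*, 0.24 for *cdf-2* and 0.11 for *ttm-1*. At 20 h the gap was -0.60 for *mtl-1*, -0.49 for *numr-1* and 0.02 for *mtl-2*, beside -0.37 to 0.30 for all genes. The 3 arrays of the direct 6 h comparison lay on 1 slide, slide 7, which also held replicate 1 of the mutant's response (4.82 for *numr-1*). Other comparisons also had all 3 arrays on 1 slide. These were the N2 response at 6 h (slide 4), the untreated strains at 6 h (slide 6) and 20 h (slide 2), and the strains with CoCl2 at 20 h (slide 3). By the fields the 3 arrays of each such comparison held both dye orders, so a shift of Cy5 over Cy3 common to a slide can be fitted. Any other effect of the slide on the ratios cannot be told apart from that of strain or treatment. Why the ratios of *numr-1* do not add up was not tested.

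*ttm-1* did not pass the test in any of the 8 comparisons. Its ratios in N2 with CoCl2 at 6 h were 0.32, 0.44 and -0.037 (mean 0.24, SE 0.086, adjusted p = 0.175 from limma), and over all 24 arrays they ran from -0.28 to 0.44. The means of the other comparisons lay between -0.22, for the strains with CoCl2 at 6 h (adjusted p = 0.0804), and 0.13, for N2 at 20 h (adjusted p = 0.26). *numr-2* was near the floor of the arrays. Its probe was well above background on 0 of 6 spots of untreated N2 and of N2 with CoCl2 at 6 h, on 1 of 6 spots in each of the other untreated or 6 h groups, and on 4 of 6 spots of N2 and 5 of 6 of *pqm-1(ok485)* with CoCl2 at 20 h. It was not tested at 6 h, where its arrays gave -0.037 to 0.092. At 20 h, where it entered the test through the arrays that paired the CoCl2 RNAs, the means were 0.16 for N2 and 0.13 for the mutant's response, 0.13 for the untreated strains and 0.15 for the strains with CoCl2 (adjusted p of 0.0768 to 0.327).

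The study's own comparison of responses asks whether the effect of CoCl2 differs between the strains, at 6 h as the strain difference with CoCl2 minus that without, and at 20 h as the mutant's response minus that of N2. At 6 h the response of *numr-1* was larger and that of *mtl-2* lower in *pqm-1(ok485)*, 1 higher and 1 lower of 5 genes tested beside 3.05% of all genes called (1.71% and 1.34%). At 20 h *mtl-1*, *mtl-2* and *cdf-2* were higher in the mutant and none was lower, 3 of 6 beside 8.86% of all genes (8.13% and 0.737%). SAM called 0 of the 6 at 20 h, where it called 117 of all genes, and centering on the median left 0 of 5 called at 6 h, where 12 of all genes were called. The comparisons share RNAs and are not independent of each other. At 6 h this difference sets the arrays of slide 7 against those of slide 6, so beyond a dye offset slide and comparison cannot be told apart.

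For *mtl-1* the difference was 1.52 at 6 h (SE 0.37, adjusted p = 0.0299 from limma) and 2.72 at 20 h (SE 0.26, adjusted p = 7.32e-05), the latter 6.60-fold and ranked 9 of 23058 genes. The size at 20 h depended on the processing, with a lowest value of 1.93 among the alternatives other than leave-one-out and the source-name dyes. On the arrays of the N2 response *mtl-1* was near background in untreated N2 at 20 h, with a background-subtracted signal of 16 to 51. With a dye offset for each slide the 20 h value of *mtl-1* was 2.72 and just missed the threshold (adjusted p = 0.0104). The 6 h value passed the threshold with a loop model of all RNAs (1.36, adjusted p = 0.0026), with only the arrays compared (adjusted p = 0.00759), with slide as a random block (1.48, adjusted p = 0.000438) and with SAM. Taken from the other pair of comparisons it was 1.20 at 6 h (adjusted p = 0.117) and 2.13 at 20 h (adjusted p = 0.000368). For *mtl-2* the difference was -0.90 at 6 h (SE 0.15, adjusted p = 0.00439) and 1.82 at 20 h (SE 0.19, adjusted p = 0.000138). With the other pair it was -1.13 (adjusted p = 0.000785) and 1.84 (adjusted p = 0.000162). The sign of the *mtl-2* difference thus turned between the times by either pair. The 6 h call was lost in 11 of 25 alternatives. Among them were centering on the median (-0.81, adjusted p = 0.732), the scanner software's ratios (-0.91, adjusted p = 0.0158), no offset (-0.95, adjusted p = 0.0114), a fit of only the arrays compared (adjusted p = 0.0161) and the replicate number as a block (-0.91, adjusted p = 0.0119). It was also lost without replicate 2 (-0.84, adjusted p = 0.0252) or 3 (-0.83, adjusted p = 0.0169) of the strains with CoCl2 and without replicate 1 (-0.91, adjusted p = 0.0381) or 2 (-0.89, adjusted p = 0.0362) of the untreated strains.

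For *numr-1* the 6 h call hung on the pair of comparisons. The difference was 1.58 (SE 0.20, adjusted p = 0.000562 from limma) by the strain comparisons and 0.36 (adjusted p = 0.479) by the responses. At 20 h it was -0.15 by the responses (adjusted p = 0.776), whose arrays had 0 saturated *numr-1* spots, and -0.64 by the strain comparisons (adjusted p = 0.0871), which rest on the saturated spots above. For *cdf-2* the difference was 0.044 at 6 h (adjusted p = 0.93) and 1.17 at 20 h (SE 0.19, adjusted p = 0.00201), the latter 1.16 by the other pair (adjusted p = 0.00159) and not past the threshold without replicate 1 of the N2 response (1.13, adjusted p = 0.012). *ttm-1* (-0.12 at 6 h and -0.06 at 20 h) and *numr-2* (-0.03 at 20 h) did not pass the test.

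**Figure D2:**
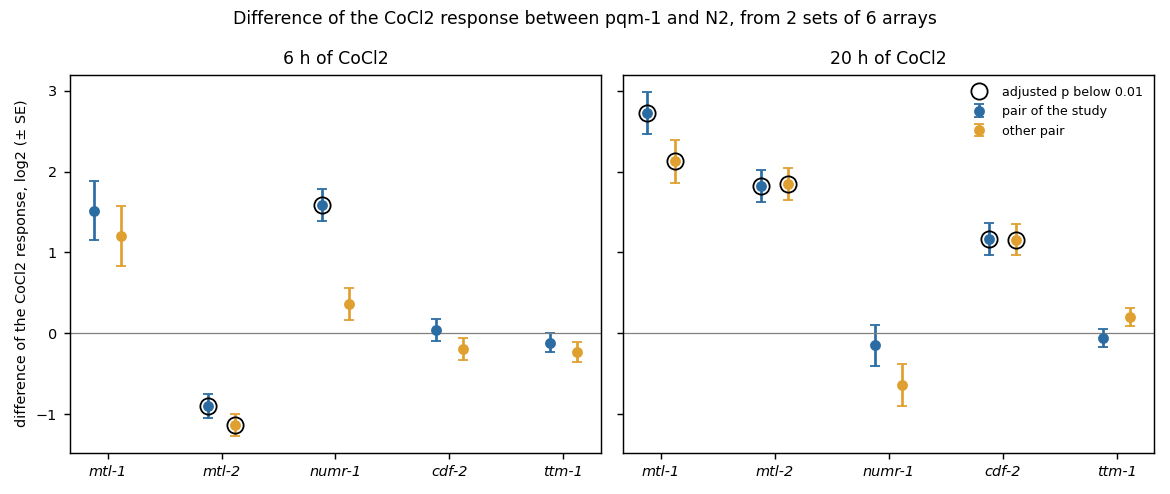
Difference of the CoCl2 response between *pqm-1(ok485)* and N2 (y axis, log2 with its standard error) for 5 genes at 6 h and 20 h, by the study's pair of comparisons in blue and by the other pair in yellow, with a ring where the adjusted p was below 0.01. *mtl-2* lies at -0.90 at 6 h and at 1.82 at 20 h, while *numr-1* at 6 h is at 1.58 by one pair and 0.36 by the other.

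The responses also differed between 6 h and 20 h, as tested in 1 fit of all 24 arrays over the 21821 genes tested at both times. In N2 *numr-1* rose further by 20 h and *mtl-2* fell further, 1 higher and 1 lower of 5 genes beside 6.06% of all genes called (3.34% and 2.72%). In *pqm-1(ok485)* *mtl-1* and *cdf-2* had risen further and *mtl-2* lay closer to its untreated level, 3 higher and 0 lower of 5 beside 16.9% of all genes (14.1% and 2.84%). The 20 h minus 6 h difference of *mtl-2* was -2.01 in N2 (SE 0.18, adjusted p = 2.65e-07 from limma) and 0.94 in the mutant (SE 0.18, adjusted p = 0.000437). For *mtl-1* it was 0.69 in N2 (SE 0.34, adjusted p = 0.245) and 2.21 in the mutant (SE 0.34, adjusted p = 5.17e-05).

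For *numr-1* the difference between the times was 1.18 in N2 (SE 0.24, adjusted p = 0.00257 from limma) and 0.67 in the mutant (SE 0.24, adjusted p = 0.049). The N2 value lost its call in 9 of 17 alternatives. With centering on the median it was 0.53 (adjusted p = 0.3). It also lost its call without replicate 1 (0.93, adjusted p = 0.0244) or 2 (1.14, adjusted p = 0.014) of the 20 h arrays and without replicate 2 (1.09, adjusted p = 0.0167) or 3 (1.09, adjusted p = 0.0157) of the 6 h arrays. For *cdf-2* it was -0.55 in N2 (SE 0.18, adjusted p = 0.048) and 0.81 in the mutant (SE 0.18, adjusted p = 0.00165). The call of the mutant's *cdf-2* value was lost in 7 of 17 alternatives. Among them were the fits without replicate 2 of the 20 h arrays (0.57, adjusted p = 0.0143) or replicate 3 of the 6 h arrays (0.67, adjusted p = 0.0135).

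Levels in the 8 RNA groups, taken as log2 signal of each probe after normalization between arrays, give the order of the groups for each gene and are described without a test. Each group was read in 6 channels. *mtl-1* was highest in *pqm-1(ok485)* with CoCl2 at 20 h, between 11.2 and 11.9 with a median of 11.6, and this range lay 1.75 above that of the next group, the mutant with CoCl2 at 6 h (9.11 to 9.45, median 9.36). It was lowest in untreated N2 at 20 h, between 6.74 and 7.13, which did not overlap the group above it, untreated *pqm-1(ok485)* at 20 h (7.51 to 8.36). The other neighbours in the order, with medians of 7.81 to 9.36, overlapped.

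*mtl-2* ran the other way. Its medians were 12.4 in untreated N2 at 6 h, 12.2 in untreated *pqm-1(ok485)* at 20 h, 12.1 in untreated N2 at 20 h and 12.04 in untreated *pqm-1(ok485)* at 6 h, followed by 11.7 in the mutant with CoCl2 at 20 h, 11.4 in N2 with CoCl2 at 6 h, 10.3 in the mutant with CoCl2 at 6 h and 9.47 in N2 with CoCl2 at 20 h. The untreated groups of 6 h rest on 5 channels, without the outlier spot. Neighbours in this order all overlapped, but the lowest group, at 9.06 to 9.71, lay wholly below the untreated groups of its own time (11.4 to 12.3 in N2 and 11.8 to 12.57 in the mutant).

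*numr-1* split the groups by CoCl2. Its medians were 8.06 to 9.06 in the 4 untreated groups, 12.8 in N2 and 14.7 in the mutant with CoCl2 at 6 h, and 15.3 in each strain with CoCl2 at 20 h. The gap between the lowest CoCl2 group and the highest untreated group was 2.25, and the 2 groups of 20 h with CoCl2 overlapped. In these 2 groups 3 of 6 spots of each probe were saturated in the mutant, and 2 of 6 and 1 of 6 in N2. Their levels thus do not order the strains. The untreated level depended on which RNA shared the array. Untreated *pqm-1(ok485)* at 6 h gave 9.56 to 9.67 beside the mutant's CoCl2 RNA and 8.34 to 8.40 beside untreated N2, and untreated N2 at 20 h gave 9.41 to 9.88 beside N2 with CoCl2 and 8.08 to 8.36 beside the untreated mutant. Before any normalization the background-subtracted signal of the untreated mutant at 6 h was 519 to 1016 in the first case and 142 to 190.5 in the second. These channels did not overlap. Such a split was not particular to *numr-1*. *mtl-1* in N2 with CoCl2 at 20 h gave 7.21 to 8.16 beside untreated N2 and 8.60 to 9.12 beside the mutant with CoCl2. *cdf-2* in the untreated mutant at 20 h gave 8.01 to 8.21 beside its CoCl2 RNA and 8.48 to 8.73 beside untreated N2. *mtl-2* in N2 with CoCl2 at 6 h gave 11.53 to 11.74 and 10.69 to 11.22. Other groups overlapped, as did *mtl-1* in the mutant with CoCl2 at either time. The cause was not tested.

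*cdf-2* was highest in the mutant with CoCl2, with medians of 9.38 at 20 h and 9.10 at 6 h, then 8.55 in N2 with CoCl2 at 6 h, 8.45 and 8.35 in the untreated mutant, and 7.83 to 7.93 in untreated N2 and in N2 with CoCl2 at 20 h, with each group overlapping its neighbours. *ttm-1* had medians of 9.32 to 9.87 and *numr-2* of 6.19 to 6.48, with all neighbours overlapping. Left without normalization between arrays, 26 of the 48 medians moved by more than the SD of their channels and several orders turned. For *mtl-2* the mutant with CoCl2 at 20 h moved from place 5 to 2 (12.28), above untreated N2 at 20 h (11.45). For *cdf-2* N2 with CoCl2 at 20 h moved from place 8 to 4, and for *ttm-1* the mutant with CoCl2 at 20 h from 7 to 1. The highest and lowest groups of *mtl-1*, the place of CoCl2 above no CoCl2 for *numr-1* and the lowest group of *mtl-2* stayed.

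**Figure D3:**
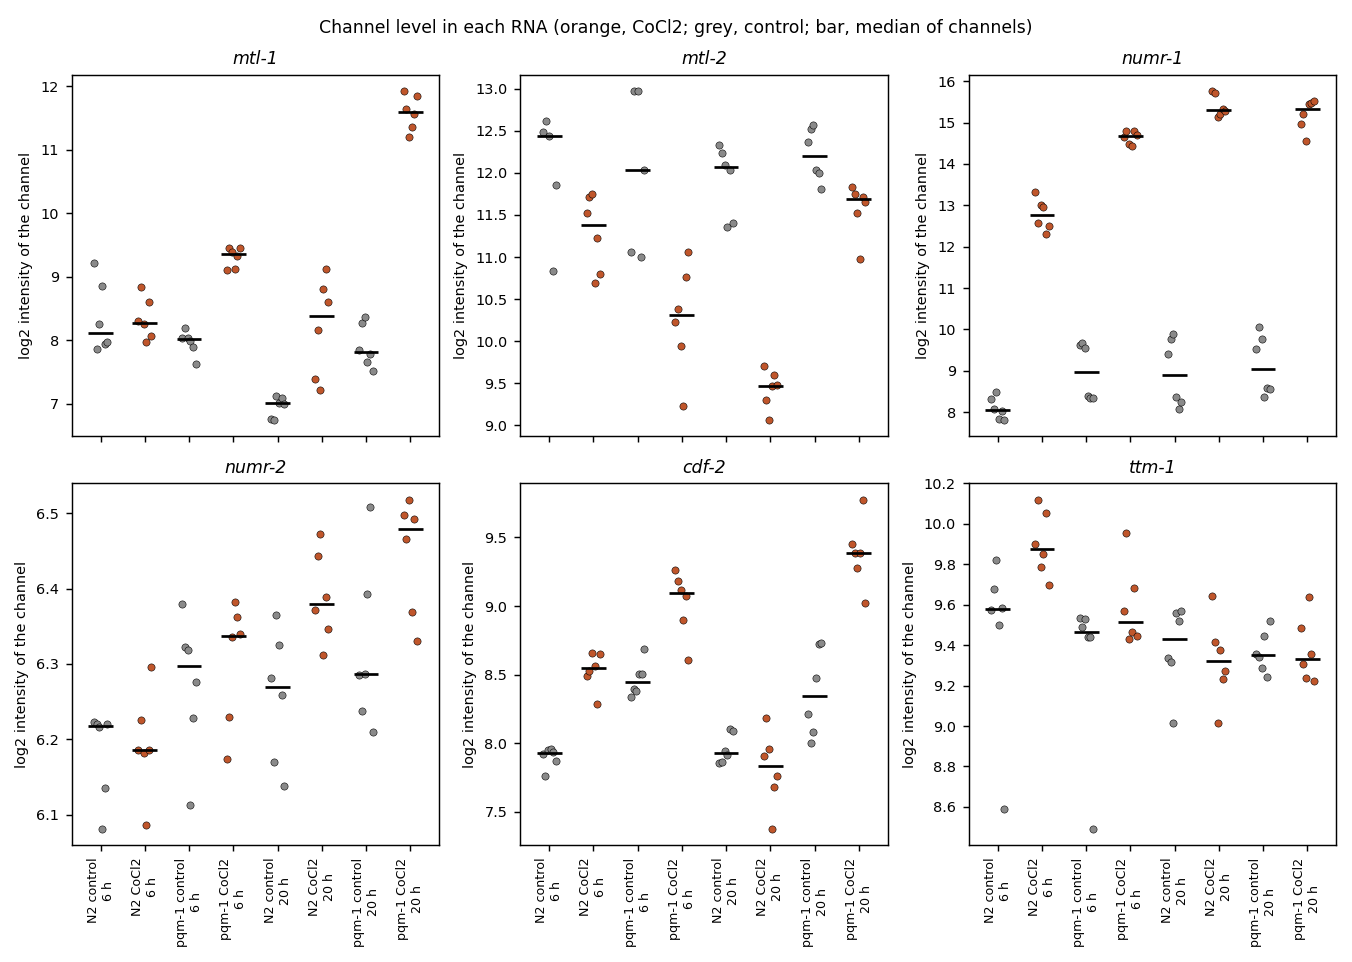
Log2 intensity of every channel (y axis) in the 8 RNA groups (x axis), with CoCl2 in orange, untreated in grey and the median as a bar. *numr-1* splits into untreated channels below 10.1 and CoCl2 channels above 12.3, and *mtl-1* is at 11.2 to 11.9 in the mutant with CoCl2 at 20 h alone.

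Other genes of zinc and cadmium handling, for uptake by ZIP transporters, efflux and phytochelatin synthesis, had log2 ratios between -0.82 and 0.96 in the 8 comparisons. Of the 22 genes of this list 20 had a probe and 19 were tested. In N2 at 6 h 0 were called by limma, with a highest log2 ratio of 0.36 and a median of 0.04 beside 0.00 for all genes, and at 20 h 2 were higher and 3 lower, where 15.9% of all genes were called, from *mrp-1* at 0.63, an ABC transporter linked to metal resistance, to *toc-1* at -0.60. In the mutant 0 were higher and 2 lower at 6 h, *zipt-2.3* (-0.58) and *sur-7* (-0.44), and 4 were higher and 5 lower of 19 at 20 h, where 35.2% of all genes were called, from *mrp-1* (0.96) to *zipt-2.3* (-0.72), a ZIP family zinc transporter. At 6 h 4.24% of all genes were called in N2 and 10.9% in the mutant.

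Between the untreated strains 2 of the list were higher and 2 lower at 6 h, from *zipt-13* (0.76) to the phytochelatin synthase gene *pcs-1* (-0.34), and 2 were higher at 20 h, *zipt-13* (0.56) and *zipt-2.2* (0.45). With CoCl2 3 were higher and 5 lower in the mutant at 6 h, from *mrp-1* (0.54) to *zipt-2.3* (-0.52), and 5 higher and 3 lower of 19 at 20 h, where 37.3% of all genes were called, from *mrp-1* (0.80) to *zipt-2.3* (-0.82). In the comparison of responses 0 were called at 6 h and 1 at 20 h, *zipt-2.1* (0.58). The medians of the list over the 8 comparisons lay between -0.09 and 0.15. Of all genes 13.8% and 4.35% were called between the untreated strains at 6 h and 20 h, and 19.6% with CoCl2 at 6 h. In the comparison of responses 3.05% and 8.86% were called.

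The *cdr* family, named for its response to cadmium, held 1 gene with a rise in each CoCl2 response. *cdr-4* was at 2.09 and 2.45 in N2 and the mutant at 6 h and at 2.45 and 3.17 at 20 h. Of the 7 genes 6 had a probe, and 3 were higher and 1 lower of 5 tested in N2 at 6 h, 2 and 1 in the mutant, 1 and 1 of 6 in N2 at 20 h, and 3 and 2 in the mutant at 20 h. The shares of all genes called were 4.24%, 10.9%, 15.9% and 35.2%, in this order. Between the strains 1 was higher at either time without CoCl2 (*cdr-2*, 0.66 and 0.52), and with CoCl2 1 was higher at 6 h (*cdr-4*, 0.89) and 4 were higher and 1 lower at 20 h, from *cdr-1* (1.35) to *cdr-7* (-0.53). Of all genes 13.8% and 4.35% were called without CoCl2 at 6 h and 20 h, and 19.6% and 37.3% with it.

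Of 9 genes known to be switched on by DAF-16, as *mtl-1* is, 8 were tested at 6 h and 9 at 20 h. *pqm-1(ok485)* with CoCl2 exceeded N2 with CoCl2 for 4 of 8 at 6 h and 5 of 9 at 20 h, led by *dod-3* (1.94 and 2.82), where 14.2% and 23.7% of all genes were higher. The other 4 at either time did not pass the test, with lowest values of -0.16 and -0.42. In the comparison of responses 4 were higher at 6 h, with *dod-3* at 1.96, and 4 were higher and 1 lower at 20 h, from *dod-3* (3.20) to *lea-1* (-0.78). In N2 alone CoCl2 lowered 1 of the list at 6 h, the ferritin gene *ftn-1* (-0.72), and at 20 h raised 3 and lowered 2, from *lea-1* (2.77) to *dod-3* (-1.16). In the mutant 5 were higher and 1 lower at 6 h and again at 20 h, from *dod-3* (1.92 and 2.04) to *ftn-1* (-0.88 and -0.90). Between the untreated strains 1 was higher and 1 lower at 6 h and 1 was higher at 20 h. Of all genes 3.05% and 8.86% were called in the comparison of responses at 6 h and 20 h. The shares were 4.24% and 15.9% in N2, 10.9% and 35.2% in the mutant, and 13.8% and 4.35% between the untreated strains.

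Of the transcription factors linked to these genes, 7 were listed and 6 tested, namely *pqm-1*, *daf-16*, *hsf-1*, *skn-1*, *hif-1* and *elt-2*. The *pqm-1* probe was lower in the mutant without CoCl2, by -2.27 at 6 h (adjusted p = 1.10e-07 from limma) and -1.45 at 20 h (adjusted p = 0.000237), but with CoCl2 it gave -0.038 at 6 h and 0.19 at 20 h between the strains. It rose with CoCl2 in both strains, by 0.77 at 6 h and 1.98 at 20 h in N2 and by 2.69 and 3.16 in the mutant. Whether the *ok485* lesion removes the target of this probe cannot be read from the files, so the genotype of the CoCl2 groups is not checked by it. *elt-2*, the GATA factor of the intestine, was higher with CoCl2 in the mutant at 6 h (0.54) and in both strains at 20 h (0.96 in N2 and 1.28 in the mutant). *hsf-1*, the heat shock factor gene, was lower in the mutant's response at 20 h (-0.40).

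**Figure D4:**
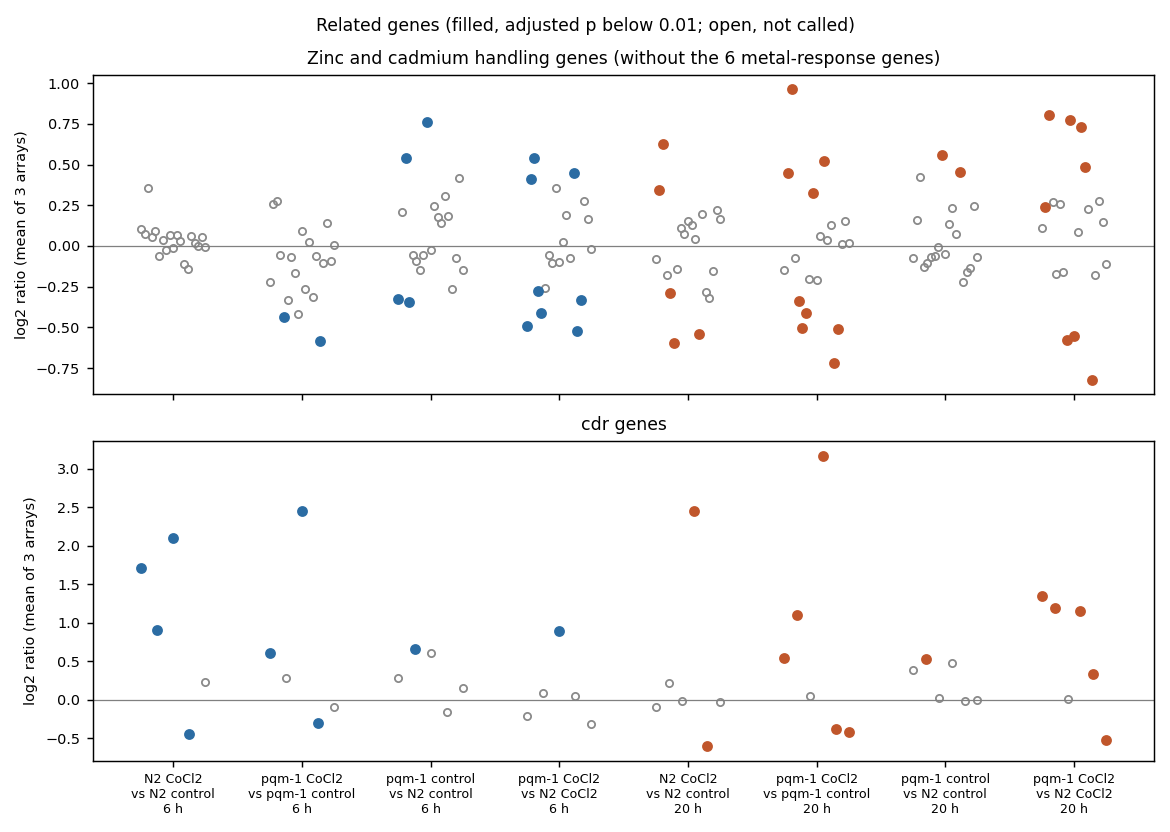
Mean log2 ratio (y axis) of each tested gene of the zinc and cadmium list without the 6 genes (top) and of the *cdr* family (bottom) in the 8 comparisons (x axis), filled where the adjusted p was below 0.01, with 6 h in blue and 20 h in orange. The top panel stays between -0.82 and 0.96, and *cdr-4* reaches 2.09 to 3.17 in the CoCl2 responses.

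Markers of the tissues in a whole worm moved with strain and treatment too, and their part in the values of the 6 genes was not tested. All 8 intestine markers, the tissue in which metallothionein genes are best known, were tested. With CoCl2 5 of 8 were higher in the mutant than in N2 at either time (medians 0.36 and 0.91), where 14.2% and 23.7% of all genes were higher. The summed log2 level of these markers ran from 15.61 to 16.03 in the N2 groups and from 16.05 to 16.66 in the mutant groups. In the response of N2 at 20 h 2 of 8 were higher and 4 lower (median -0.42), beside 8.98% and 6.93% of all genes. In that of the mutant at 20 h 4 were higher and 3 lower (0.20), beside 22.8% and 12.4%. At 6 h 1 was higher and 1 lower in N2 (0.06), beside 2.56% and 1.68%. In the mutant at 6 h 3 were higher and 3 lower (-0.16), beside 6.07% and 4.83%. *mtl-2* was lower in each of these responses. Major sperm protein genes, whose near-identical sequences share signal, were higher in untreated *pqm-1(ok485)* for 27 of 27 tested at 6 h (median 3.34) and 24 of 26 at 20 h (2.34). With CoCl2 they were higher in the mutant for 27 of 27 (3.25) and 25 of 26 (1.89), and in the responses at 20 h for 22 of 26 in N2 (1.86) and 26 of 26 in the mutant (2.74), against 0 of 27 at 6 h in either strain. Of all genes 10.5% and 3.1% were higher in the untreated mutant at 6 h and 20 h. In the responses of N2 and the mutant 2.56% and 6.07% were higher at 6 h, and 8.98% and 22.8% at 20 h.

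The summed sperm level was 15.4 to 16.1 in untreated N2 at 6 h and 19.4 to 20.3 in the mutant with CoCl2 at 20 h. Oocyte and eggshell markers were lower in the mutant with CoCl2 for 4 of 8 at either time (medians -0.48 and -0.45) and lower in the mutant's response at 20 h for 6 of 8 (-0.51). The 3 body wall muscle markers were higher in the mutant for 3 of 3 without CoCl2 at 6 h (0.63) and with CoCl2 at both times (0.74 and 0.69). Pharynx markers were higher for 2 of 4 in the N2 response and 3 of 4 in the mutant's response at 20 h, and neuron markers for 2 of 4 and for 3 of 4 with 1 lower. Of all genes 8.98% and 22.8% were higher in these responses, and 12.4% lower in the mutant's. In the mutant with CoCl2 14.2% and 23.7% of all genes were higher at 6 h and 20 h, and 5.42% and 13.6% lower. Without CoCl2 at 6 h 10.5% were higher.

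The pattern of each gene over the 8 comparison means was set beside that of the 4376 other genes tested at both times whose means spanned at least 1. These are descriptions over 8 points that share RNAs. Nearest to *numr-1* were *hsp-16.41*, a small heat shock protein gene (Pearson r = 0.998), *gst-6* (0.998) and *gst-30* (0.996), both glutathione S-transferase genes. *hsp-16.41* stood at 4.23 and 4.59 in the responses of N2 and the mutant at 6 h. Nearest to *mtl-1* were *spp-2*, ZK1307.2 and *bcmo-2* (each 0.986), to *mtl-2* T04F3.4 (0.993), ZK593.3 (0.991) and *cest-9.1* (0.991), and to *cdf-2* *fut-6* (0.989), C29F9.2 (0.988) and *hex-2* (0.982). *ttm-1*, whose own means span under 1, was nearest to M03A1.3 (0.924), *pgp-6* (0.922) and Y17D7B.2 (0.918). Among the 6 genes themselves, *mtl-1* and *mtl-2* had a correlation of 0.21, *mtl-2* and *numr-1* one of -0.87, and *cdf-2* one of 0.74 with *mtl-1* and 0.76 with *mtl-2*.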

How the data were processed

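RNA of whole worms was hybridized to 24 Agilent 4x44K arrays, each with a Cy3 and a Cy5 sample. Per the file headers, the authors scanned and quantified the arrays with Feature Extraction 12.0.2.2 on a grid annotated to ce6:WS190:May2008, which is not the build of the RefSeq gene table, so coordinates are not given. The deposited intensity values used here were the median signal and median background of each spot and channel. The deposited log10 ratio of the scanner software (Cy5 over Cy3) and the deposited log2 ratio of the series table (first RNA over second by the fields) served as alternatives. Both were scaled by the authors' software and, turned to the same order and log base, were within rounding of each other. No column of other samples was present, and no column held the authors' comparisons.

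Signals were corrected with normexp (offset 50) and normalized by loess within each array in limma 3.58.1 (R 4.3.3). Control spots got weight 0 and were left out afterwards, outlier spots were dropped and saturated spots kept. The sign of each array was set by the dyes of the strain and treatment fields. Probes were named through the RefSeq table (34515 of 43603 matched) and averaged per gene. Genes were tested where a probe stood above background on all arrays of a comparison and at least 2 arrays per comparison gave a value. One model per time was fitted to 12 arrays (8 residual degrees of freedom), and 1 to all 24 arrays for the difference between times. Calls use a Benjamini-Hochberg adjusted p below 0.01. Each comparison had 3 arrays, which the study's methods call biological replicates. Channel levels were additionally normalized between arrays (Aquantile). The scripts were tested on simulated arrays.

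The members and the gene lists were chosen with earlier results of these data known. The lists are zinc and cadmium handling, the *cdr* family, DAF-16 activated genes, linked transcription factors, and markers of intestine, pharynx, body wall muscle, sperm, oocyte and eggshell, and neurons. From each list the text names the called genes with the highest and lowest ratio of a comparison, and for each member the 3 genes of most similar pattern. Genes named beyond that rule (*zipt-2.2* and the transcription factors) were chosen after their values were seen. Alternatives were no offset, centering in place of loess, the scanner and series ratios, other filters, single probes, only the arrays compared, a dye term, a loop model, slide as a fixed or random block, a block for the replicate number, the dyes of the source names, SAM (own implementation), a threshold of 0.05, the other pair of comparisons, and leaving out each array. A search of promoter sequence was not run.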

Additional observations from a re-analysis of the deposited data

Results flagged for a closer look

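Both kinds of difference below are between groups under the same contrast, tested by limma, and no explanation of them was tested. The CoCl2 response differed between the strains at 6 h for *mtl-2* (-0.90, a call lost in 11 of 25 alternatives) and, by the strain comparisons only, for *numr-1* (1.58). By the other pair of comparisons the *numr-1* value was 0.36 (adjusted p = 0.479 from limma), and its ratios around the 4 comparisons leave a gap of 1.23. The response also differed at 20 h for *mtl-1* (2.72, a call lost in 3 of 24 alternatives), *mtl-2* (1.82, lost in 2 of 25) and *cdf-2* (1.17, lost in 5 of 25). Within a strain it differed between 20 h and 6 h. In N2 this was so for *mtl-2* (-2.01) and *numr-1* (1.18, a call lost in 9 of 17 alternatives). In *pqm-1(ok485)* it was so for *mtl-1* (2.21), *mtl-2* (0.94) and *cdf-2* (0.81, a call lost in 7 of 17). Each array was left out in turn, but groups of 3 arrays are too small to tell whether 1 array is an outlier.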

How the results depend on the processing

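With the dyes of the source names limma called 0 of the 6 genes in all 12 comparisons, and 13 values that had passed the test changed sign. It also called 0 of all genes in the CoCl2 responses of either strain at either time. These were, for *pqm-1(ok485)* with CoCl2 against N2 with CoCl2, *mtl-1* (-0.22 at 6 h and -1.01 at 20 h), *mtl-2* (0.15 and -0.82), *cdf-2* (-0.38 and -0.75) and *numr-1* at 6 h (-0.74), for the mutant's response at 6 h *mtl-1* (-0.28), *mtl-2* (0.71), *numr-1* (-1.60) and *cdf-2* (-0.34), for the strain difference in the response at 6 h *numr-1* (-0.85), and for the mutant between the times *mtl-2* (-0.82). No value that passed the test changed sign under any other alternative.

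Counts of the 6 genes called moved as follows, as did the totals over all genes, and the cause was not tested. Totals stand in parentheses, and main marks the fit used in the Results. Centering on the median left 1 in N2 at 6 h (291 of all genes, main 936) and 2 in the mutant at 6 h (833, main 2404). It left 0 between the untreated strains at 6 h (1136, main 3036) and 2 between the strains with CoCl2 at 6 h (1667, main 4326). For the strain difference in the response at 6 h it left 0 (12, main 673). For the difference between times it left 1 in N2 (292, main 1322) and 1 in the mutant (1414, main 3686). SAM called 1 in the mutant at 6 h (223 of all genes) and 2 between the untreated strains at 20 h (2023, main 1004). It called 0 for the strain difference in the response at 20 h and 1 for N2 between the times (985). With no offset the counts were 2 in the mutant at 6 h (1708 of all genes) and 1 between the untreated strains at 20 h (1173). For the strain difference in the response at 6 h the count was 1 (381). The scanner ratio and the series table each gave 2 between the untreated strains at 20 h, 1 for the strain difference at 6 h and 1 for N2 between the times. With the scanner ratio the totals there were 1859, 652 and 1800 of all genes. Between the untreated strains at 20 h, where 0 were called, the threshold of 0.05, the dye offset per slide, the dye term, the loop model and the strict filter each gave 1, and only the arrays compared gave 2. The first 3 of these alternatives called 1903, 716 and 1309 of all genes. Between the untreated strains at 6 h the threshold of 0.05, the loop model and slide as a random block gave 2. The other pair of comparisons gave 1 for the strain difference in the response at 6 h (375 of all genes, main 673). SAM, the threshold of 0.05, the loop model and slide as a random block each gave 3 there, with *mtl-1* added. Leaving out 1 array gave 2 to 3 in the mutant at 6 h (1352 to 2771, main 2404) and 1 to 2 for N2 between the times (819 to 1699, main 1322). For the strain difference at 6 h it gave 1 to 2. Counts without a total beside them cannot be set against all genes here and are not read as a result about these genes.

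Nothing in the labels says that replicate numbers pair the arrays. In 2 of 12 pairs of comparisons, both at 6 h and each sharing 1 RNA group, all 3 same-numbered arrays deviated together (r of 0.23 to 0.38 and 0.22 to 0.41) and matched their own number best, and in the other 10 they did not. With the replicate number as a block 64 of 65 values kept their side of the threshold, and the strain difference of *mtl-2* at 6 h did not (-0.91, adjusted p = 0.0119 from limma), which left 1 gene called there. Centering moved the share of higher genes among all called by over 10 points in 8 of 12 comparisons, for N2 at 20 h from 56.4% to 31.5%, and the scanner ratio in 6 of 12, for the mutant at 20 h from 64.7% to 47.8%, where it moved the median of all genes by -0.17. Saturation limits *numr-1* at 20 h, and *numr-2* is limited by its background.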
